A study of Homo sapiens with 8 samples.

Results

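A498 is an established human kidney carcinoma line, and its response to A939572 is described here beside the responses of 3 other renal carcinoma lines, ACHN, CAKI2 and CAKI1. The A498 members are 2 of the 8 arrays of the series, chosen by the cell line given in the labels: 1 array of A498 cells given 75 nM A939572 for 24 h and 1 array of A498 cells given DMSO, the solvent, for the same time. Each other line likewise has 1 treated array and 1 DMSO array. A939572 inhibits stearoyl-CoA desaturase. The submitters describe all 4 lines as clear cell renal carcinoma from a commercial collection, grown in serum-supplemented medium, so each line is 1 cell culture model and not a set of patients. Every value is log2(signal + 16) after quantile normalization, and a response is the difference A939572 minus DMSO within a line. With 1 array on each side there is no test within A498. The question asked of the data is where the A498 response differs from those of the other 3 lines.

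Stearoyl-CoA desaturase turns saturated fatty acyl chains into monounsaturated ones, which cells need for membranes and stored lipid. When saturated chains build up in the membrane of the endoplasmic reticulum, sensors there start the unfolded protein response. Its ATF6 and XBP1 arms raise chaperones and degradation factors, and its PERK arm raises ATF4 and CHOP, which act on amino acid supply and cell death. A498 is known as a line with a mutated VHL gene, and loss of VHL leaves hypoxia-inducible factors active in normal oxygen.

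The 8 arrays had median signals of 68.6 to 84.2 units on the deposited scale. The labelled tissue was checked on 17 measured genes of the renal tubule lineage, of which 12 were at or above the level used as filter, 6.41, on each of the A498 arrays. PAX8, the renal lineage factor, had 12.52 in treated and 12.14 in DMSO-treated A498, and cytokeratin KRT18 had 14.22 and 14.18. The cadherin CDH1 had 4.53 and 5.14, below that level on both arrays. Of 8 measured leukocyte markers 3 reached the level in treated and 2 in DMSO-treated A498, none above 6.86, and the summed leukocyte signal was 417.4 and 369.3 units, against 355.6 to 769.8 in the treated and 304.3 to 548.2 in the DMSO arrays of the other lines. The defining leukocyte gene PTPRC had 5.22 and 4.44. Of 8 endothelial markers 1 reached the level in each A498 array, with sums of 275.3 and 289.1 units. Fibroblast markers summed to 1735.3 and 2736.8 units in A498, above the other lines at 454.6 to 580.3 treated and 745.5 to 1040.6 in DMSO, and COL1A1 and FBLN1 carried most of that. ACTB, whose control probe sets at the 3′ and 5′ ends show RNA integrity, had a signal ratio of 3′ over 5′ that was 3.13 in treated and 2.33 in DMSO-treated A498. That is a log2 ratio of 0.42, the smallest of the lines, against 0.98 in ACHN, 0.64 in CAKI2 and 0.51 in CAKI1. The same ratio for GAPDH did not put A498 lowest, with a log2 ratio of 0.09 in A498, against 0.03 in ACHN, 0.05 in CAKI2 and 0.15 in CAKI1. Their part in the differences below was not tested.

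The size of the A498 response lay within that of the other lines. In such bulk RNA, fewer cells in a state and less RNA per cell cannot be told apart. Among 12093 genes tested, 770 were at least 2-fold higher in treated A498 cells (6.37% of genes) and 700 at least 2-fold lower (5.79%). The corresponding counts were 918 and 977 in ACHN, 773 and 754 in CAKI2 and 570 and 662 in CAKI1. The SD of the log2 differences over genes was 0.67 in A498, between CAKI1 at 0.64 and CAKI2 at 0.69, with ACHN at 0.75. Scaling moved the split in A498. Of the genes past 2-fold, 52.4% were higher after quantile normalization and 49% (685 against 713) with signals as deposited. The share was 63.6% (917 against 524) when each array was centred on its median. That centring also moved the median of all genes in ACHN, at 0.12 against -0.01 after quantile normalization.

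The largest positive A498 differences were mostly above 2 in every line, and the largest negative ones were mostly not below -2 in every line. Of the 8 genes with the largest positive difference, 7 also had a difference above 2 in each other line. CXCL2, a chemokine gene, had a difference of 4.89 in A498, against 2.53, 5.00 and 2.68 in ACHN, CAKI2 and CAKI1. It cannot be fully separated from the near-identical CXCL1 and CXCL3. The cytokine gene IL6 had 3.90, against 2.37, 3.37 and 2.52. ATF3, a stress-induced transcription factor, had 3.88, against 3.91, 4.04 and 4.24. BHLHA15, a transcription factor of secretory cells, had 4.50 in A498, and CXCL8, FOS and CXCL3 had 3.69, 3.54 and 3.48. FBN2 was the exception among the 8 and is described next. On the negative side the noncoding transcript MIR181A2HG had -3.44 in A498, against -3.95, -2.52 and -3.85. It was the only one of the 8 largest negative differences below -2 in each other line, and only MAP7D2, at -2.89 in A498, was also below -1 in each. All 8 except USF1 were nonetheless negative in every other line. CDH6 had -3.24, against -0.32, -1.52 and -0.98. The surface protein gene CD24 had -3.02, against -2.80, -0.65 and -1.97, and the sulfotransferase gene CHST9 had -2.94, against -2.27, -0.85 and -2.03. NREP had -2.92, against -1.81, -0.89 and -1.56. ID1, an inhibitor of helix-loop-helix factors, had -2.81, against -3.34, -2.50 and -0.29. USF1 had -2.66, against -0.56, -0.17 and 0.00. NREP also had only -0.81 in A498 in its next brightest probe set, and CD24 probe sets can match near-identical copies.

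**Figure D1:**
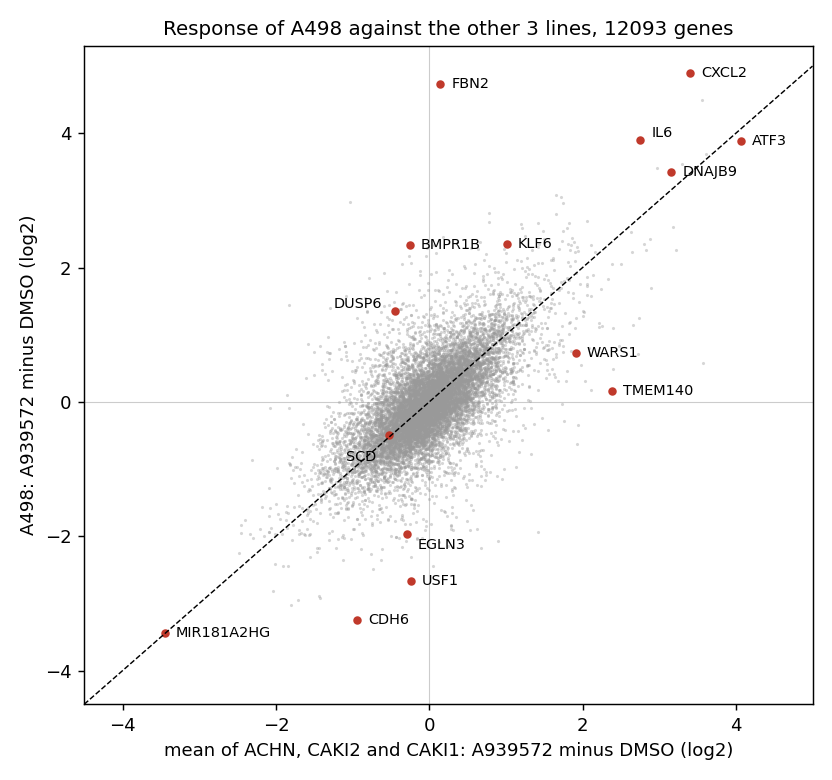
Each grey point is 1 of 12093 genes, with the A498 difference (A939572 minus DMSO, log2) on the vertical axis and the mean difference of ACHN, CAKI2 and CAKI1 on the horizontal axis; the dashed line marks equal values and red points are named genes. ATF3, DNAJB9 and MIR181A2HG lie near the line, FBN2 at 4.73 lies far above it, and CDH6 at -3.24 and TMEM140 at 0.16 lie below it.

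No gene met the test of a difference between A498 and the other lines. In limma, with the line as a block and the A498 response set against the mean response of the other 3, 0 of 12093 genes were higher and 0 lower at an adjusted p of 0.05 (Benjamini-Hochberg, 0% each). At an unadjusted p under 0.05 there were 568 genes, 4.7% of those tested, of which 305 were higher and 263 lower in A498. The lowest adjusted p was 0.229, for FBN2. The same test with ACHN, CAKI2 or CAKI1 as the line set apart also called 0 genes, with 667, 647 and 584 at an unadjusted p under 0.05. An exact test of 1 line against 3 cannot give a p below 0.25. A miss does not show that the lines respond alike, since the median SE of the A498 difference from the others was 0.38. The unadjusted 95% interval of that difference was 3.39 to 5.76 for FBN2 and 0.56 to 2.12 for KLF6. Both genes were named for lying outside the other lines in these data, so these intervals are no support for a difference. What follows therefore describes where A498 lay outside the other lines, and none of it was shown to differ by an adjusted test.

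The A498 difference lay at least 1 log2 unit above the highest of the other 3 for 128 genes (1.06%), and at least 1 below the lowest for 97 (0.802%). ACHN had 151 and 121 such genes, CAKI2 142 and 79, and CAKI1 105 and 138. At a distance of 0.5 the counts were 582 above (4.81%) and 472 below (3.9%). Dim signals made up part of the A498 genes: of the 225, 48 were below the filter level on both A498 arrays and 80 at or above it on both. For 74 of them the next brightest probe set reached that level on an A498 array, and in 27 of these it also lay at least 0.5 outside the other lines in the same direction. The corresponding counts were 39 of 87 in ACHN, 28 of 74 in CAKI2 and 29 of 82 in CAKI1. Among the 128 genes above the other lines, the DMSO level of A498 alone lay below all other DMSO arrays in 74, the treated level alone lay above all other treated arrays in 11, and both held in 36. Among the 97 below, the treated level alone lay outside in 54, the DMSO level alone in 22 and both in 12.

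FBN2, which encodes the extracellular matrix microfibril protein fibrillin-2, lay farthest above the other lines. Its level was 10.87 in treated A498 and 6.14 in DMSO-treated A498, or 26.5-fold higher with the drug on this scale. The treated arrays of ACHN, CAKI2 and CAKI1 had 7.31, 5.85 and 11.74, and their DMSO arrays 6.55, 5.71 and 12.19. FBN2 was thus near the filter level in A498 without the drug, and CAKI1 had a high level on both arrays. The A498 difference of 4.73 exceeded the mean of the others, 0.15, by 4.58 ± 0.51 (SE; adjusted p = 0.229 in limma). Only its brightest probe set was readable in A498: the other 2 had -1.01 and -0.74, with both A498 arrays below the filter level in each. Without ACHN among the lines compared, FBN2 was the 1 gene past the threshold (adjusted p = 0.0386).

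The bases upstream of FBN2 are printed with those of KLF6, a gene described below, since the first had the largest A498 difference beyond the other lines and the second lay above them in each of its 5 probe sets. Both come from RefSeq on GRCh38.p14 and end 1 base before the gene's annotated start. The 250 bases of each were searched on both strands for the E-box CACGTG, the cyclic AMP response element TGACGTCA, the C/EBP-ATF element TTGCATCA, the AP-1 site TGANTCA and the endoplasmic reticulum stress element, motifs picked after the values were seen. The E-box, in capitals, was the 1 match in each, beginning 97 bases before the start.
FBN2, chr5:128538246-128538495, minus strand: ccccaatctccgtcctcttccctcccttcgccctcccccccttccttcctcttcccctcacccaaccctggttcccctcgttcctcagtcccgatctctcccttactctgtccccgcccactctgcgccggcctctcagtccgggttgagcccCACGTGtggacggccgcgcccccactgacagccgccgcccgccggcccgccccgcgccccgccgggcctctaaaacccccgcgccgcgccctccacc
KLF6, chr10:3785210-3785459, minus strand: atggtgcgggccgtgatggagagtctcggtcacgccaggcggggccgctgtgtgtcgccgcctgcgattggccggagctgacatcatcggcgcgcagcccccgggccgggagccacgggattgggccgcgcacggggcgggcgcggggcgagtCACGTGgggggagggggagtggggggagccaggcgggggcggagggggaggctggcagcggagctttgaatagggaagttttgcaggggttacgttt
Of the 35116 RefSeq promoters, 6.34% hold that motif in the same 250 bases, 1.65% the cyclic AMP response element, 0.772% the C/EBP-ATF element, 6.57% the AP-1 site and 0.074% the stress element. A match describes these letters and says nothing of a factor binding there.

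Other genes above the other lines started from low DMSO levels in A498. BMPR1B, a receptor for bone morphogenetic proteins, had 8.04 in treated and 5.70 in DMSO-treated A498. In the other lines it had 9.11, 8.06 and 8.39 treated and 9.37, 8.32 and 8.62 in DMSO. The A498 DMSO array was thus the low one of the 8. The difference was 2.34 in A498 and -0.26 to -0.23 in the others, and its 2 dimmer probe sets had 0.91 and 1.16 in A498. The A498 response exceeded the others by 2.59 ± 0.39 (SE; adjusted p = 0.676 in limma). The lipid-linked reductase gene MTARC1 had 6.38 in treated and 4.93 in DMSO-treated A498, both below the filter level, while its DMSO levels in the others were 8.99 to 10.04 and its differences there -2.39, -1.78 and -1.32. GLDC, the glycine decarboxylase gene, had 7.14 and 6.31 in A498, against differences of -1.64, -1.49 and -1.12 from DMSO levels of 9.06 to 12.03. The desmosomal gene PPL, with A498 at 6.58 and 5.04, and the adhesion receptor gene CXADR, with 6.46 and 5.27, also had their lowest DMSO level in A498. The next CXADR probe set had 0.21 against -1.08 to -0.50 in the other lines, with both A498 arrays below the filter level. The A498 differences of ENTPD1, an ectonucleotidase, the proline catabolism gene PRODH2, FOXE1 and PSLNR were 0.97 to 1.58 while each other line had -1.96 to -0.63. FOXE1, at 5.40 and 4.16, and PSLNR, at 5.93 and 4.97, were below the filter level on both A498 arrays. SLC6A13, TSNARE1, PHETA2, MIR3945HG, MAP1LC3A and C14orf93 had A498 differences of 1.84 to 2.98. For SLC6A13, a GABA transporter, TSNARE1 and ENTPD1, the next probe set had -0.96, -1.28 and -1.39 in A498. Both A498 arrays were below the filter level in each, so no readable second probe set repeated the difference. The next probe set of PRODH2 had -0.53 and that of MAP1LC3A 0.65, both within the other lines. That of MIR3945HG had 0.01, above the other lines at -1.88 to -0.71. Among these only that of MAP1LC3A reached the filter level on an A498 array.

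CDH6, which encodes a cadherin of the developing renal tubule, lay below the other lines in most of its probe sets. It had 8.14 in treated and 11.38 in DMSO-treated A498. In ACHN, CAKI2 and CAKI1 it had 4.26, 7.94 and 6.76 treated and 4.58, 9.46 and 7.75 in DMSO. A498 had the highest DMSO level, and its treated level was close to that of treated CAKI2. The A498 coefficient, its difference minus the mean of the others, was -2.30 ± 0.58 (SE; adjusted p = 0.997 in limma). The 6 CDH6 probe sets had -3.24, -2.40, -2.07, -2.08, -2.33 and -2.33 in A498, below all other lines in 5 of 6. MAP7D2, a microtubule-associated protein gene, stood at 8.86 in treated and 11.75 in DMSO-treated A498, with a difference of -2.89 against -1.66 to -1.08. The sulfotransferase SULT1C2 had 5.64 in treated and 7.48 in DMSO-treated A498, with -1.84 and -1.26 in its 2 readable probe sets against -0.09 to 1.27 elsewhere.

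USF1, an E-box binding transcription factor with 1 probe set, had 5.38 in treated and 8.04 in DMSO-treated A498. Its levels in ACHN, CAKI2 and CAKI1 were 6.84, 6.67 and 8.94 treated and 7.40, 6.84 and 8.94 in DMSO. MME, the membrane protease neprilysin, had 4.52 and 6.97 in A498, but -0.35 in its other, dim probe set. The linker histone gene H1-3 had 5.05 in treated and 7.22 in DMSO-treated A498. PPFIA4, SHKBP1, MEIS3 and NEURL2 had A498 differences of -2.07, -1.89, -1.65 and -1.09, with differences of 0.01 to 1.54 in the other lines and treated A498 levels below the filter level. A second MEIS3 probe set had 0.72 in A498.

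**Figure D2:**
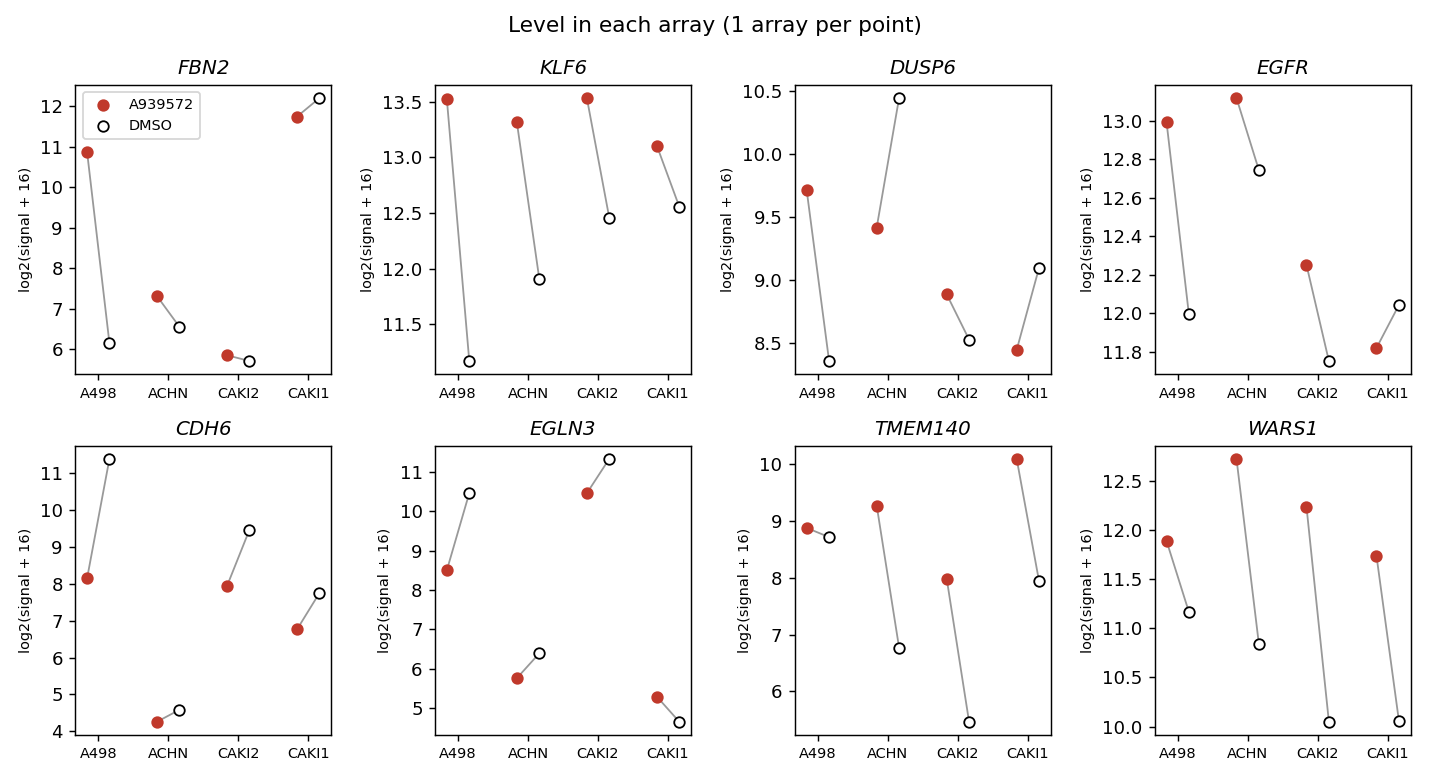
Level in each of the 8 arrays, as log2(signal + 16), of 8 genes picked after their values were seen; in each line the red point is A939572 and the open point DMSO, 1 array each, and the vertical axes differ and do not start at 0. FBN2 and KLF6 differ most in A498, CDH6 and EGLN3 are lower in treated A498, and TMEM140 is nearly level in A498 alone.

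Genes higher in all other lines were mostly higher in A498 too. Of 158 genes at least 2-fold higher in ACHN, CAKI2 and CAKI1 alike, 117 were at least 2-fold higher in A498, and the A498 median was 1.46 against a median of 1.70 for the means of the others. With another line set apart in the same way, that line's median was 1.60 for ACHN, 1.40 for CAKI2 and 1.08 for CAKI1. Of 146 genes at least 2-fold lower in the other 3, 93 were at least 2-fold lower in A498, with a median of -1.14, against -1.44, -1.34 and -1.02 for ACHN, CAKI2 and CAKI1 set apart. In 11 of the 158 the A498 difference was under 0.5, and in 3 it was below 0: DEPP1 (-0.29), KCNT2 (-0.62) and LAMP3 (-0.34), named for that after their values were seen. Both A498 arrays of KCNT2 were below the filter level. In 17 of the 146 it was above -0.5, and in 3 above 0, MTARC1, GLDC and LY86 (0.42), the last also named after its value was seen.

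TMEM140, a membrane protein gene, was the readable gene farthest below the other lines in this group. It had 8.87 in treated and 8.71 in DMSO-treated A498. The treated levels of ACHN, CAKI2 and CAKI1 were 9.27, 7.98 and 10.09, and their DMSO levels 6.77, 5.47 and 7.94. The DMSO level of A498 was the highest of the 4, and its treated level lay within the treated range. The A498 coefficient was -2.22 ± 0.41 (SE; adjusted p = 0.689 in limma).

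Of the unfolded protein response lists, the PERK-ATF4-CHOP median lay below those of the other lines in A498, and the ATF6 and XBP1 median lay within them. Of all genes, 6.37% were at least 2-fold higher in A498 and 5.79% at least 2-fold lower. Of 29 tested ATF6 and XBP1 targets, 18 were at least 2-fold higher and 0 at least 2-fold lower. The list median was 1.16 in A498, against 0.98, 1.57 and 0.88 in ACHN, CAKI2 and CAKI1. On this list 6 genes lay above the range of the other lines and 4 below it, where all genes had 24.1% above and 24.7% below, and none lay 0.5 or more outside. The cochaperone DNAJB9, named after its value was seen, had 3.42. Of 18 PERK-ATF4-CHOP genes, 9 were at least 2-fold higher, with a median of 0.95, against 1.60, 1.68 and 1.36. Here 1 gene lay above the range of the other lines and 8 below it. Of the 18, 3 lay 0.5 or more below it, against 3.9% of all genes. Those 3, CEBPG, DDIT3 and NUPR1, are described here. The distance was only -0.03 for ATF3 and -0.06 for TRIB3. PPP1R15A, at 2.26, was the gene above the range, and GADD45A, at 2.33, lay within it. CEBPG, a partner of ATF4, had 12.18 in treated and 11.33 in DMSO-treated A498, and 11.89, 12.42 and 11.49 treated and 10.19, 10.73 and 9.79 in DMSO in the others. Its treated level lay within the range of the other lines and its DMSO level above it, and the difference was 0.85 in A498 and 1.69 to 1.70 elsewhere. Its second probe set had 0.85, within 0.65 to 1.12. DDIT3, which encodes CHOP, had 2.27 against 2.86, 3.85 and 2.94. The stress gene NUPR1 had 0.46 against 1.19, 3.18 and 1.02.

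Amino acid supply and tRNA charging, a set of genes that ATF4 controls in part, had a median of 0.34 over 24 genes, against 0.56, 0.82 and 0.53. None lay above the range of the other lines and 10 lay below it, against 24.1% and 24.7% of all genes. Of the 24, 2 lay 0.5 or more below it, against 3.9% of all genes. WARS1, the tryptophan tRNA synthetase, had 11.89 in treated and 11.17 in DMSO-treated A498, and 12.72, 12.23 and 11.74 treated and 10.84, 10.05 and 10.06 in DMSO in the others. Its differences in A498, 0.72 and 0.56 in 2 probe sets, lay below 1.68 to 2.19 and 1.30 to 1.75 in the other lines. The A498 DMSO level was again the highest of the 4. The neutral amino acid transporter SLC1A4 had -0.53 in its chosen probe set, against 0.36 to 0.68. Its next probe set had 0.49, also below the other lines at 0.87 to 1.33. The dimmest had -0.74, within the other lines at -0.76 to -0.24. The A498 coefficients of CEBPG, DDIT3, WARS1 and SLC1A4 were -0.84, -0.95, -1.19 and -1.05, each with adjusted p = 0.997 in limma.

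Among early response and growth factor genes, KLF6, DUSP6 and EGFR lay above the other lines. The immediate early list had a higher median in A498 than in each other line. Gene by gene, however, the median of A498 minus the other lines was only 0.09 for that list. Of 17 immediate early genes, 6 were at least 2-fold higher in A498, against 6.37% of all genes. The list median was 0.94 against 0.76, 0.55 and 0.55. Of the 17, 4 lay above and 4 below the range of the other lines, near the 24.1% and 24.7% of all genes. KLF6, a zinc finger factor induced early by growth signals, had 13.52 in treated and 11.17 in DMSO-treated A498. It had 13.31, 13.53 and 13.10 in treated and 11.91, 12.46 and 12.56 in DMSO-treated ACHN, CAKI2 and CAKI1. The treated levels spanned 13.10 to 13.53, and the A498 DMSO level was the lowest of the 4. Its 5 probe sets had 2.35, 2.85, 2.46, 2.10 and 0.92 in A498, each above the other lines, whose highest values were 1.40, 1.57, 1.48, 1.35 and -0.36. The A498 coefficient was 1.34 ± 0.34 (SE; adjusted p = 0.997 in limma). EGR1, another early factor, had 0.96 against -0.67, 0.06 and -1.03, and 0.48 in its next probe set, against at most 0.31.

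DUSP6 encodes a phosphatase that ERK signalling induces and that switches ERK off. It had 9.71 in treated and 8.35 in DMSO-treated A498, against 9.41, 8.88 and 8.44 treated and 10.44, 8.52 and 9.09 in DMSO in ACHN, CAKI2 and CAKI1. The A498 treated level was the highest of the treated arrays and the A498 DMSO level the lowest of the DMSO arrays. Its 3 probe sets had 1.36, 1.56 and 2.30 in A498, each above the highest other line at 0.36, 0.20 and 0.95, and ACHN and CAKI1 had -1.10 to -0.43. EGFR, the epidermal growth factor receptor, had 12.99 and 11.99 in A498. It had 13.12, 12.25 and 11.82 treated and 12.74, 11.75 and 12.04 in DMSO elsewhere. Its 3 brightest probe sets had 1.00, 1.32 and 0.92 in A498, against -0.22 to 0.50 in the other lines, and a dimmer one had -1.38. Over the 19 tested genes of MAP kinase feedback and EGFR ligands, the median was 0.86, against 0.91, 0.43 and 0.29, inside the other lines. Of the 19, 6 lay above and 3 below their range, against 24.1% and 24.7% of all genes. The A498 coefficients were 1.80 ± 0.53 for DUSP6 and 0.78 ± 0.33 for EGFR (SE; adjusted p = 0.997 for both in limma).

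**Figure D3:**
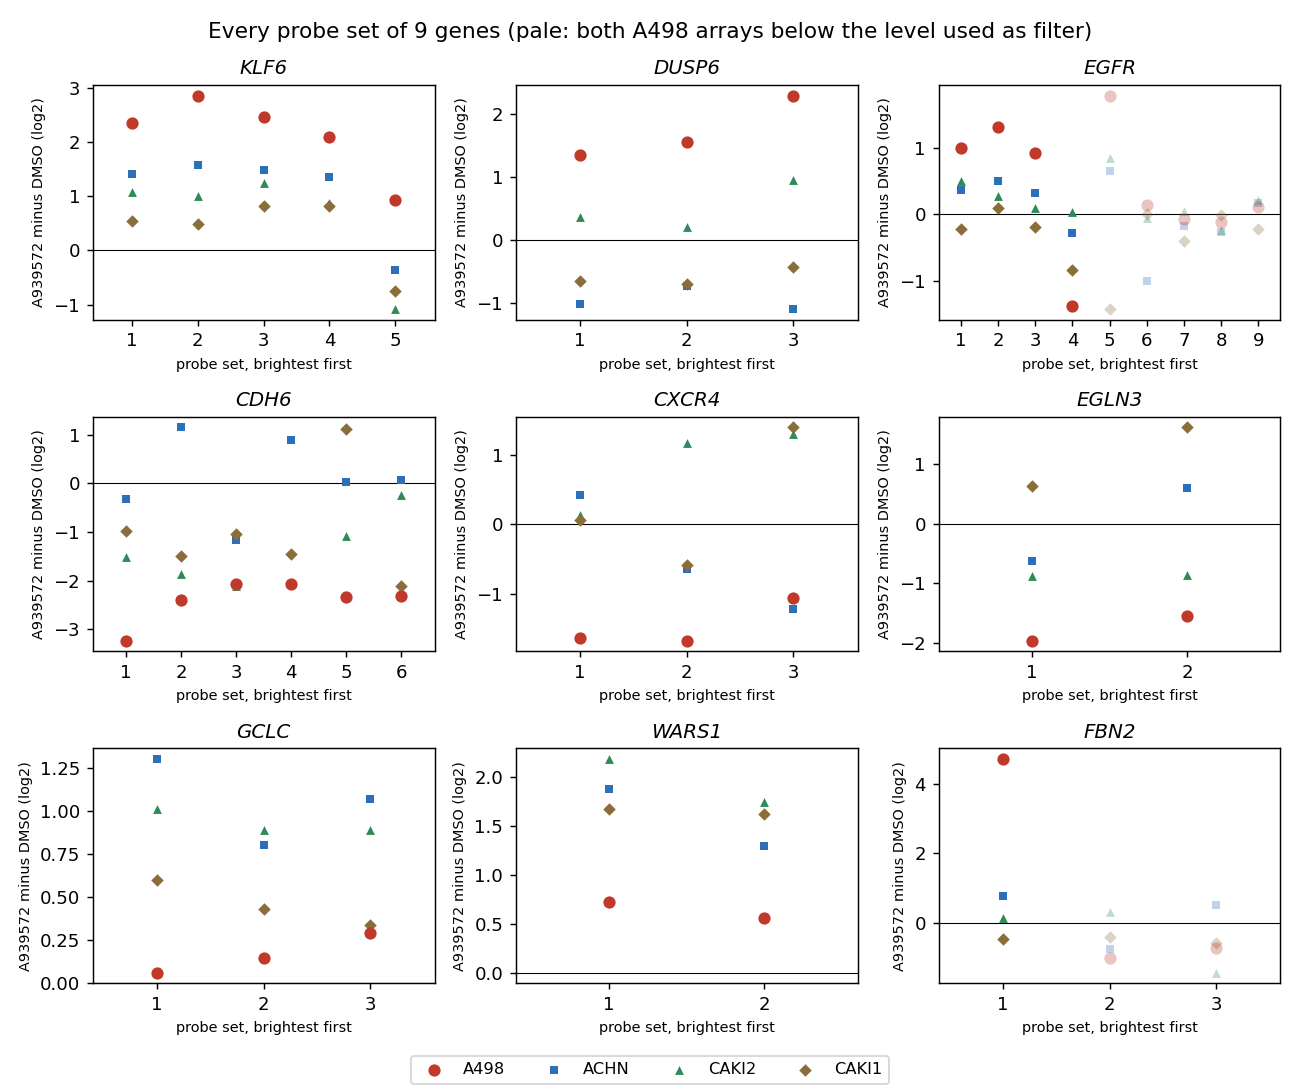
Differences (A939572 minus DMSO, log2) of every probe set of 9 genes, brightest first, with a large red circle for A498, a blue square for ACHN, a green triangle for CAKI2 and a brown diamond for CAKI1. A498 lies above the other lines in all 5 probe sets of KLF6 and all 3 of DUSP6, below them in both of EGLN3 and WARS1, and far above in only the brightest of FBN2.

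Many hypoxia-inducible factor targets had a lower difference in A498 than in any other line. Of 24 tested genes, 0 lay above and 13 below the range of the other lines, against 24.1% and 24.7% of all genes, and the median was 0.12, against 0.20, 0.33 and 0.53. EGLN3, an oxygen-sensing prolyl hydroxylase, had 8.50 in treated and 10.47 in DMSO-treated A498. It had 5.76, 10.46 and 5.28 treated and 6.39, 11.34 and 4.65 in DMSO in ACHN, CAKI2 and CAKI1. Only A498 and CAKI2 had high levels, and A498 had the larger difference, -1.96 and -1.54 in its 2 probe sets, against -0.88 and -0.86 in CAKI2. CXCR4, a chemokine receptor, had 7.31 in treated and 8.94 in DMSO-treated A498, against 6.58, 6.60 and 5.77 treated and 6.15, 6.46 and 5.70 in DMSO in ACHN, CAKI2 and CAKI1. A498 was the highest line on both sides. Its 3 probe sets had -1.63, -1.67 and -1.06 in A498, of which ACHN was lower in the last, at -1.22. NDRG1, a stress-responsive gene, had 12.88 in treated and 13.11 in DMSO-treated A498, a difference of -0.23 against 2.27, 1.18 and 0.96. Its A498 DMSO level exceeded those of the other lines, at 9.85, 12.85 and 11.74. None passed the test, with adjusted p = 0.997 for each in limma.

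Cell division genes had negative medians in every line, smaller in size in A498 than in the others for mitosis. Of 32 G2/M and mitosis genes, 9 were at least 2-fold lower and 0 at least 2-fold higher, against 5.79% and 6.37% of all genes. The list median was -0.69, against -1.27, -1.37 and -0.89. Of the 32, 17 lay above the range of the other lines and 0 below it, against 24.1% and 24.7% of all genes. At 0.5 or more above it there were 5 of the 32, against 4.81% of all genes. CENPA, the centromeric histone, had 10.42 in treated and 10.02 in DMSO-treated A498. Its treated levels in the others were 9.68, 9.14 and 8.79, and its DMSO levels 10.31, 9.95 and 9.36. The DMSO level of A498 lay within the range of the other lines and its treated level above all of theirs. The kinesin KIF2C had -0.11 and -0.17 in its 2 probe sets, against -1.35 to -0.75, and the kinetochore motor CENPE had -0.16 against -1.19 to -0.77. The 32 genes of DNA replication and entry into S phase had 20 at least 2-fold lower, against 5.79% of all genes. The median of this list was -1.17, inside the other lines at -1.63, -1.50 and -0.90, with 10 above the range and 0 below it. CDC6, which loads the replicative helicase, went against its list, at 12.43 in treated and 10.99 in DMSO-treated A498. It had 1.44 and 1.04 in 2 probe sets, against -0.38, 0.68 and 0.74 in the brightest in ACHN, CAKI2 and CAKI1. Of 13 regulators of G1, with a median of -0.04 against -0.02, -0.42 and -0.48, 7 lay above the range and 2 below it. Cyclin D3 (CCND3) had 0.04 against -1.08, -1.51 and -0.56. Cyclin D2 (CCND2) had -0.57 from levels below the filter in A498.

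Matrix, YAP-TEAD and TGF-beta lists had higher medians in A498 than in each other line. Of 14 YAP-TEAD targets, 9 lay above and 1 below the range of the other lines, against 24.1% and 24.7% of all genes. Of the 14, 2 lay 0.5 or more above it, against 4.81% of all genes. The median of these targets was 0.17 against -0.19, -0.45 and -0.27. The matricellular genes CCN1 and CCN2 had 0.73 and 0.31 in A498. CCN1 had -0.10, -0.15 and 0.14 in ACHN, CAKI2 and CAKI1, and CCN2 had -0.45, -1.34 and -0.84. A second CCN1 probe set had 0.81 in A498 against -0.22 to 0.04. Of 22 matrix and integrin genes 9 lay above and 2 below, with a median of -0.02 against -0.51, -0.21 and -0.65, and the collagen gene COL5A2 had 0.99 against -0.58 to 0.08. Its second probe set did not repeat this, with 1.32 in A498 and 1.88 in CAKI2. For 19 genes of TGF-beta, BMP and ID signalling the counts were 7 and 2, with a median of -0.05 against -0.51, -0.46 and -0.40. The BMP antagonist NOG had 2.06 there, the activin subunit INHBA 2.28 and the SMAD corepressor SKIL 0.38, against 0.95, 1.58 and -0.58 in the highest other line. The next INHBA probe set did not repeat this, with 1.59 in A498 against 1.81 in ACHN and 1.61 in CAKI2, and the next SKIL probe set had -0.34. The list median in A498 exceeded the mean of the other lines' medians by 0.41. Taken gene by gene, however, the median of A498 minus the other lines was -0.03 for this list, and averaging the probe sets of each gene gave a list difference of -0.0067. The same gene by gene median was 0.55 for YAP-TEAD targets and 0.12 for matrix and integrin genes. Metallothioneins, with 3 of 7 above and 0 below, had -0.48 against -0.90, -1.31 and -0.63. Fibroblast marker signal was higher in A498 than in the other lines, as given above.

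**Figure D4:**
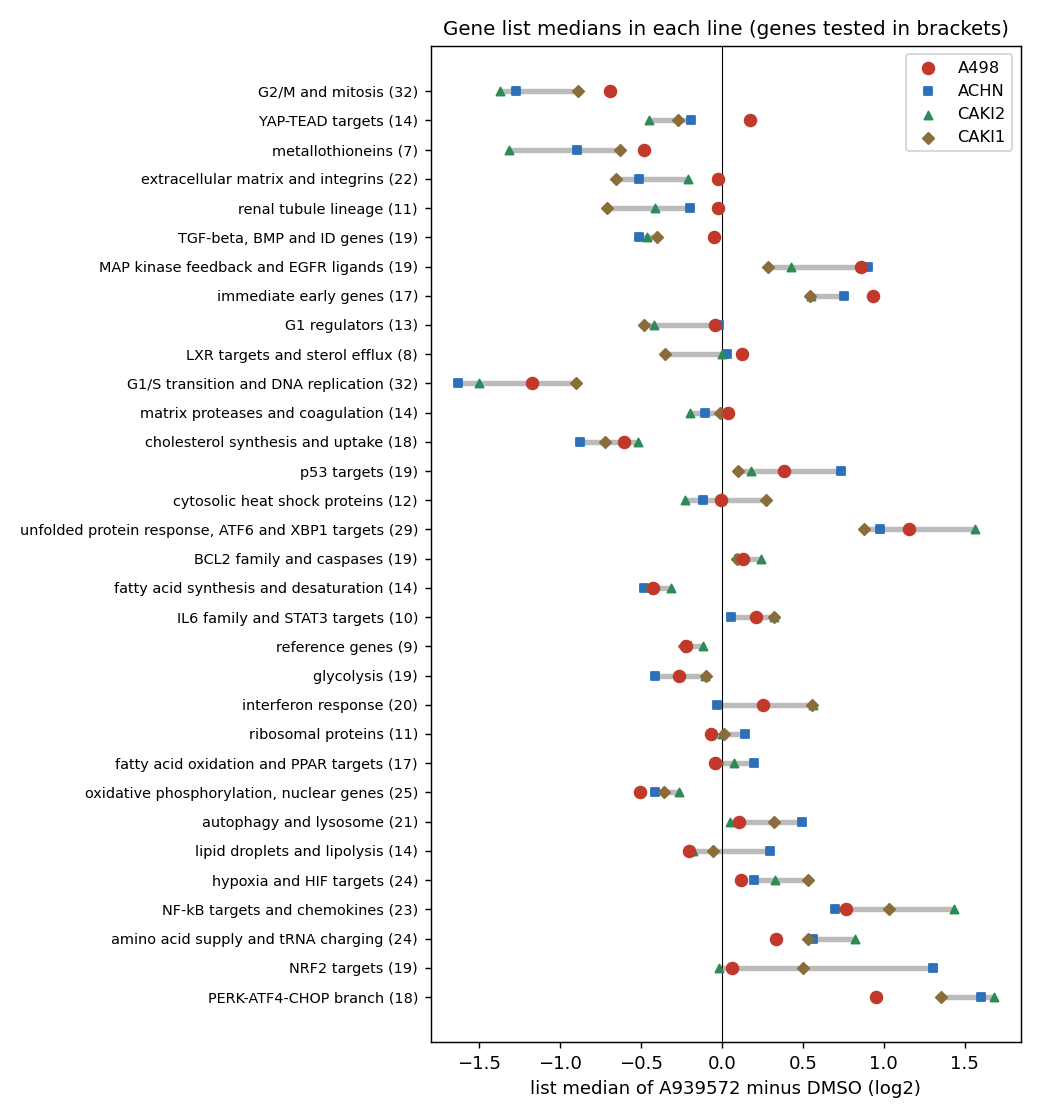
Median difference (A939572 minus DMSO, log2) of each gene list with at least 5 tested genes, in A498 (large red circles) and in ACHN, CAKI2 and CAKI1 (smaller symbols, joined by a grey bar from their lowest to their highest). A498 lies outside the bar for mitosis (-0.69), YAP-TEAD targets (0.17), the PERK-ATF4-CHOP branch (0.95) and amino acid supply (0.34), and inside it for cholesterol synthesis (-0.61) and fatty acid synthesis (-0.43).

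Lipid synthesis, the pathway the drug acts on, had list medians in A498 within those of the other lines. SCD encodes the enzyme that A939572 blocks and had 14.41 in treated and 14.90 in DMSO-treated A498, with a difference of -0.49, against -0.93, -0.10 and -0.55. Its other probe sets had -1.13, 0.06 and -0.40. The A498 coefficient was 0.03, with a 95% interval of -0.66 to 0.73. SCD5, a second desaturase, had -0.03 against 0.42, 0.63 and 0.23, and its dimmer probe sets disagreed. Of 14 fatty acid synthesis and desaturation genes, 5 lay above and 4 below the range of the other lines. All genes had 24.1% above and 24.7% below. The median of the 14 was -0.43 against -0.48, -0.31 and -0.44. Cholesterol synthesis and uptake had 4 of 18 above and 1 below, with a median of -0.61 against -0.88, -0.52 and -0.72. SC5D, a late sterol desaturase, had 0.20 against -0.56, -0.32 and -0.65, and the dim TM7SF2 had 0.25. PLIN2, the main coat protein of lipid droplets in many cells, had 14.40 in treated and 14.39 in DMSO-treated A498. In ACHN, CAKI2 and CAKI1 it had 13.12, 13.70 and 14.54 treated and 11.94, 13.13 and 13.48 in DMSO. The A498 DMSO level was the highest of the 4, and the A498 difference of 0.01 lay below 1.18, 0.57 and 1.06. The next PLIN2 probe set did not repeat this, with -1.63 in A498, within -1.79 to 0.10 in the other lines. The droplet genes CIDEC and FITM2 had 1.07 and -1.12, and the next FITM2 probe set had -0.39, within the other lines. Lipid droplets and lipolysis as a list had 1 of 14 above and 5 below, with a median of -0.20 against 0.30, -0.18 and -0.06. Fatty acid oxidation (3 of 17 above, 6 below) had -0.04 against 0.20, 0.07 and -0.03, and LXR targets (1 of 8 above and 1 below) had 0.12 against 0.03, -0.0004 and -0.35.

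Antioxidant genes under NRF2 control varied widely between lines. Their median was 0.06 in A498, against 1.30 in ACHN, -0.02 in CAKI2 and 0.50 in CAKI1. Of 19 genes 1 lay above and 10 below the range of the other lines, against 24.1% and 24.7% of all genes. Of the 19, 1 lay 0.5 or more below it, against 3.9% of all genes. GCLC, which makes the precursor of glutathione, had 0.06, 0.15 and 0.29 in its 3 probe sets, below the lowest other line at 0.60, 0.43 and 0.34. Of 23 NF-kB targets and chemokines, 10 were at least 2-fold higher in A498, against 6.37% of all genes. The list median was 0.77 against 0.70, 1.44 and 1.03, and 5 genes lay above and 4 below the range. CXCL1 had 2.30 against 1.16 to 1.67, while NFKBIA, the feedback inhibitor of NF-kB, had 11.24 on both A498 arrays and differences of 1.13, 0.79 and 1.29 elsewhere. Of 20 interferon response genes 5 lay above and 4 below, with a median of 0.25 against -0.03, 0.56 and 0.56. IFIT2 had 0.72 against 1.64, 3.49 and 3.05. Its next probe set had 0.33, close to 0.39 in ACHN, with 3.36 in CAKI2 and 2.67 in CAKI1. ISG20 had 1.13 and 1.35 in 2 probe sets, while ACHN, CAKI2 and CAKI1 all exceeded both values. Their second probe set differences were 2.96 to 4.59. OAS2 had 0.16 against -0.91 to -0.58. Its levels were 9.44 and 9.28 in treated and DMSO-treated A498 and 5.35 to 6.42 in the other lines. The next OAS2 probe set had -0.52 against -1.07 to -0.80. The adjusted p was 0.997 in limma for each of GCLC, CXCL1, NFKBIA, IFIT2 and ISG20.

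Nuclear genes of oxidative phosphorylation had a median of -0.51 in A498, against -0.41, -0.27 and -0.36. Of these 25 genes 1 lay above and 13 below the range of the other lines, none by 0.5 or more. All genes had 24.1% above and 24.7% below. Ribosomal protein genes had -0.07 against 0.15, -0.0017 and 0.01, with 0 of 11 above and 7 below, all by less than 0.5. Glycolysis (2 of 19 above, 7 below, median -0.27), autophagy and lysosome (1 of 21 and 5, 0.11) and IL6 family and STAT3 targets (4 of 10 and 1, 0.21) lay within the medians of the other lines. So did p53 targets (3 of 19 and 3, 0.39), BCL2 family and caspases (3 of 19 and 4, 0.13), cytosolic heat shock proteins (1 of 12 and 3, -0.0050) and reference genes (3 of 9 and 1, -0.22). Matrix proteases and coagulation (3 of 14 and 3) had 0.04, just above the other lines. PFKL in glycolysis had 0.77 in A498, BCL2 0.13 and CASP4 -0.46, but their next probe sets had -0.0025, -0.05 and 0.47, each within the other lines. The renal tubule lineage (2 of 11 and 3) had -0.02 against -0.19, -0.41 and -0.71. Gene by gene, the median of A498 minus the other lines had the opposite sign to the difference of the list medians for the renal lineage (-0.06), LXR targets (-0.11), heat shock proteins (-0.16), NF-kB targets (0.08) and IL6 family genes (0.05), as for the TGF-beta list. Leukocyte, fibroblast and endothelial markers had only 1, 2 and 1 tested genes, with A498 medians of -0.28, -0.88 and -0.03.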

How the data were processed

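RNA of 4 lines, each with and without A939572, was measured on 8 oligonucleotide arrays through cRNA carrying biotin. Each deposited value is an intensity, the linear signal of a probe set. The authors scaled each array, as the values show: the mean after trimming 2% at each end was 500.067 to 500.073 on all 8. The summarization program is not given in the sources used here. Of 54675 probe sets, 62 controls were left out, and 41091 had 1 symbol in the platform annotation (1801 several, 11721 unnamed); 41037 matched a current symbol by Entrez ID. Signals became log2(signal + 16) and were quantile normalized. Each gene took its probe set with the highest mean, and 12093 of 19775 genes with a mean of at least 6.41 (median over probe sets) were tested.

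limma (3.58.1, R 4.3.3; trend, Benjamini-Hochberg) fitted line, treatment and treatment in A498, with 2 residual degrees of freedom (8.08 after moderation; median SE 0.38); the lone A498 pair is assumed to vary like the other pairs, and no label states separate cultures, so the spread measured is that between these arrays. The number of arrays limits the precision. The fit was tested on simulated data. Genes, members and lists (691 genes, 562 tested, 64 below the filter, 65 without a single-symbol probe set) were chosen with earlier results of these data known. Genes named are SCD and SCD5; the 12 farthest outside the other lines each way with 1 A498 array at the filter level; the 8 largest A498 differences each way; 8 of opposite direction (at least 0.8 against 0.5); and up to 3 per list at least 0.5 outside. A Y-linked gene was left out. Alternatives changed scaling, offset (1 and 64), filter, probe sets, lines, variance trend and block.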

Additional observations from a re-analysis of the deposited data

Results flagged for a closer look

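A line was singled out where its difference stood apart from those of the other 3 by Dixon's ratio, the gap to the nearest line over the whole range, above its 95% critical value. Among 115 sets of 4 differences, from 79 genes, 32 gene lists and 4 controls, 11 exceeded that value, and A498 was the line apart in 9. Chance gives about 1 in 20, and many of these genes were named for their distance from the other lines, so the count is no support for a pattern. A498 stood above the others for BMPR1B (ratio 0.988), TSNARE1 (0.927), C14orf93 (0.927), PPL (0.914), CXADR (0.898), FOXE1 (0.849) and SKIL (0.843). It stood below them for CEBPG (0.987) and TMEM140 (0.845). The SKIL difference had the other sign with the mean of all probe sets. A second TSNARE1 probe set had -1.28 in A498, with both A498 arrays below the filter level.

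CAKI2 stood apart for the median of the reference genes (0.848), at -0.12. It also stood apart for the 5′ probe set of 28S ribosomal RNA (0.86), with a log2 difference of 1.37. That signal was higher in every treated array, at 42363 in treated against 6997 in DMSO-treated A498, a log2 difference of 2.60. Its part in the other results was not tested.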

How the results depend on the processing

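No setting but one called a gene: without ACHN, 1 gene passed the threshold, FBN2, and leaving out a line gave 0 to 1 genes higher and 0 to 0 lower. Among the named genes alone, the lowest adjusted p elsewhere ran from 0.105 to 0.999987 in limma. The last was in the fit with no replicate block for the line, which called 0 genes. Leaving out a line raised the genes at least 1 above the range to 204 to 248 and those below it to 171 to 199, since fewer lines make a narrower range. With an offset of 64 these counts were 49 and 35, without the filter 500 and 367, and with a stricter one 67 and 45; the mean of all probe sets gave 78 above. The genes at least 2-fold lower in A498 numbered 453 with an offset of 64, and without the filter 1602 were higher and 1525 lower. The SD of the differences was 0.737 with an offset of 1, 0.586 with an offset of 64 and 0.610 with probe sets averaged. List differences from the other lines moved as follows: ribosomal proteins -0.31 with median centring and -0.36 as deposited; TGF-beta genes 0.31 as deposited, 0.33 with an offset of 64, 0.34 without and with the stricter filter (0.3381 and 0.3431) and -0.0067 with probe sets averaged. An offset of 64 gave immediate early genes 0.17 and the renal lineage 0.15, and no filter gave YAP-TEAD targets 0.28. The mean of all probe sets gave hypoxia targets -0.41, LXR targets -0.14, matrix proteases -0.21, BCL2 family and caspases 0.19 and reference genes -0.16. Without probe sets shared between transcripts, matrix proteases had -0.087, reference genes 0.36 and the renal lineage -0.14. Single genes changed the sign of the A498 difference from the others: SCD had -0.087, -0.14 and -0.17 with median centring, as deposited and without ACHN, and up to 0.24 without CAKI2; CXCL8 had -0.081 and -0.13 with those scalings and -0.19 to 0.22 over the lines left out; MIR181A2HG had -0.0078 as deposited, -0.25 without ACHN -0.20 without CAKI1 and 0.46 without CAKI2. SKIL had -0.013 with the mean of all probe sets, NREP 0.52 and CASP4 0.15 without shared probe sets, and leaving out a line gave FOS -0.23 to 0.77 and ID1 -1.42 to 0.11. The causes were not tested. The PERK, amino acid, hypoxia, mitosis and YAP-TEAD lists kept their direction in 11 of 11 settings. So did many others, among them the NF-kB, interferon, cholesterol synthesis, glycolysis and autophagy lists, whose A498 medians lay within the other lines. Every setting drew on the same arrays, so a kept direction is no support for a difference particular to A498.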
